A study of Homo sapiens with 8 samples.

Results

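RELB, PTGS2, CCL20 and CCL4 are inducible inflammatory genes of myeloid cells, and their transcripts were followed here in THP-1, a human leukaemia line of monocytic origin, after 5 h with a kinase inhibitor. All probes whose platform annotation names 1 of these genes were taken, which gave 4 probes for 4 genes, 1 each, out of 53617 probes and 14884 named genes on the array. The genes were chosen by measured values of these same arrays, namely the change with each compound and its unevenness between the FRAX-597 arrays. Their levels and changes are therefore a description without a test, and support nothing. Cells received IPA-3 at 6 µg/mL, FRAX-597 at 2 µg/mL or the same volume of the solvent DMSO. IPA-3 is an allosteric inhibitor and FRAX-597 an ATP-competitive inhibitor of the p21-activated kinases, of which PAK1 was the study's target in acute myeloid leukaemia. DMSO was hybridised on 4 whole-transcript expression arrays and each compound on 2, with total RNA of 1 sample an array. All are of a single line, and no label says that replicates were separate cultures, so a p-value below reflects array-to-array spread that may be technical.

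The arrays form 2 sets of 4 on different scales, without a label that says so. The median over all probes was 5.51 to 5.55 with DMSO 1, DMSO 2 and IPA-3, and 6.00 to 6.05 with DMSO 3, DMSO 4 and FRAX-597. IPA-3 was accordingly read against the controls of its own set (DMSO 1 and 2), as was FRAX-597 (DMSO 3 and 4). All levels are log2 expression values as deposited, and a change is a difference of such values. Of 8 measured monocytic marker genes, 5 lay above the 75th percentile of all probes on every array, including LYZ (lysozyme), CSF1R and CD68. CD14, which binds lipopolysaccharide, lay lower, at percentile 61.9 to 74.7, as did CD86 (46.2 to 65.7) and MPO (52.5 to 60.6). Of the markers of other cells, 1 of 5 epithelial genes lay above that percentile on every array, the keratin KRT18, while EPCAM stayed under percentile 39.9. The count was 0 of 5 for T cells, 0 of 2 for B cells and 0 of 2 for fibroblasts. On their highest arrays, though, CD4 of the T cell list reached percentile 90.1 and PAX5 of the B cell list 85.1.

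NF-kB is a family of dimeric transcription factors that inhibitor proteins hold in the cytoplasm until a receptor signal releases them. RELB is the subunit of the slower non-canonical branch, where it pairs with the p52 product of NFKB2, and its own gene is an NF-kB target. CCL20 and CCL4 encode secreted chemokines, CCL20 drawing dendritic cells and lymphocytes through CCR6 and CCL4 drawing monocytes and T cells. PTGS2 encodes cyclooxygenase-2, the inducible enzyme that commits arachidonic acid to prostaglandins. In monocytes these genes are known as rapid responders to bacterial products and cytokines.

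Of the 4 genes, PTGS2 and CCL20 matched the RefSeq promoter table (GRCh38.p14), and RELB and CCL4 did not. The 250 bases before the transcription start are shown for both, which had the smallest and the largest change with FRAX-597. Capitals mark every match, on either strand, to GGG, any 5 bases, then CC, the outer letters of the kB element that NF-kB binds. Overlapping matches run together. The PTGS2 stretch is chr1:186680424-186680673 (minus strand) and the CCL20 stretch chr2:227813592-227813841 (plus strand).
PTGS2: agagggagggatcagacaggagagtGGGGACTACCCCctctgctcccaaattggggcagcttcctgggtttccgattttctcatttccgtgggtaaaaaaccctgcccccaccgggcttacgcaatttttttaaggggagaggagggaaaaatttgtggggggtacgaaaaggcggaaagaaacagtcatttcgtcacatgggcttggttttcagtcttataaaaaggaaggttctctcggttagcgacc
CCL20: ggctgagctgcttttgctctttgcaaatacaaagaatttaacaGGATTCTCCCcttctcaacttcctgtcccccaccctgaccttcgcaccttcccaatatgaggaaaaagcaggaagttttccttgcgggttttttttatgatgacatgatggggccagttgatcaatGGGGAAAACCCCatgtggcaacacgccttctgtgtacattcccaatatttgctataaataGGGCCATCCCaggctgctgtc

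In PTGS2 all 4 matches fell in the single run GGGGACTACCCC, 225 to 214 bases before the start. In CCL20 the 7 matches lay in GGATTCTCCC, in GGGGAAAACCCC at 81 to 70 bases, and in GGGCCATCCC close to the start. The same letters occurred in 54.4% of all 35116 promoter windows of 250 bases, so their presence is common. The narrower NF-kB consensus, searched by name with its fixed purines and pyrimidines on both strands, matched CCL20 and not PTGS2, and matched 9.96% of all windows. PTGS2 also held TGACG, core letters of a CRE, on the minus strand at 58 to 54 bases (21.2% of windows), TTGCNNAA, a C/EBP element, on the minus strand at 133 to 126 (9.05%), and TATAAA at 32 to 27 (10.7%). CCL20 had TATAAA at 29 to 24 bases. The AP-1 letters TGANTCA were in neither stretch and in 6.57% of windows. These are letter matches only, with no binding measured.

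RELB stood at 7.04 and 6.98 in DMSO 1 and 2, and at 7.77 and 7.71 with IPA-3 (probe 16863168). Both IPA-3 arrays lay above both controls, and replicates were close. The mean went from 7.01 ± 0.04 to 7.74 ± 0.04 (SD, n = 2 each), a change of 0.73 or 1.66-fold. In the second set RELB stood at 7.59 in DMSO 3 and 7.07 in DMSO 4, at 9.01 in FRAX-597 1 and at 7.37 in FRAX-597 2. Here the groups overlapped, because FRAX-597 2 lay below DMSO 3 while FRAX-597 1 was far above the other arrays. The mean change was 0.86 (means 7.33 ± 0.37 and 8.19 ± 1.16, SD, n = 2 each), or 1.81-fold. Without FRAX-597 1 it was 0.04, and without FRAX-597 2 it was 1.68.

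CCL20 had the largest changes of the 4 genes with both compounds, from low control levels. Its level was 3.73 and 3.78 in DMSO 1 and 2 and 4.51 and 4.75 with IPA-3 (probe 16891774). Both IPA-3 arrays lay above both controls. The controls were below the lower quartile of all probes (4.15 and 4.14), and whether they exceed background was not tested, so the size of the change, 0.87 or 1.83-fold, is uncertain. In the second set CCL20 was at 5.25 and 5.28 in DMSO 3 and 4, at 7.49 in FRAX-597 1 and at 6.08 in FRAX-597 2. Both FRAX-597 arrays lay above both controls, although they differed from each other by 1.41. The mean change was 1.52 or 2.87-fold (means 5.26 ± 0.02 and 6.79 ± 0.99, SD, n = 2 each), and 0.82 without FRAX-597 1. It ranked 29th of 14884 genes by FRAX-597 change and 57th by IPA-3 change.

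CCL4 had, like RELB, an even difference with IPA-3 and 1 far array with FRAX-597. It read 4.85 and 4.72 in DMSO 1 and 2 and 5.21 and 5.13 with IPA-3 (probe 16833420), so that the groups did not overlap, for a change of 0.38 or 1.31-fold. In the second set it read 4.52 in DMSO 3, 4.34 in DMSO 4, 5.73 in FRAX-597 1 and 4.56 in FRAX-597 2. FRAX-597 2 exceeded DMSO 3 by 0.04 only, whereas FRAX-597 1 exceeded it by 1.22. The mean change was 0.72 or 1.64-fold (means 4.43 ± 0.12 and 5.15 ± 0.83, SD, n = 2 each), and 0.13 without FRAX-597 1. DMSO 3, DMSO 4 and FRAX-597 2 were all below the lower quartile of all probes on their arrays (4.64, 4.73 and 4.70). Whether this probe also takes up transcripts of the near-identical copies CCL4L1 and CCL4L2 was not tested.

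PTGS2 had the smallest differences. In the first set it was at 6.28 and 6.26 with DMSO and at 6.51 and 6.55 with IPA-3 (probe 16697370), without overlap and with a change of 0.26 or 1.20-fold. In the second set the values were 7.54 in DMSO 3, 7.84 in DMSO 4, 7.91 in FRAX-597 1 and 7.69 in FRAX-597 2. The groups overlapped, since FRAX-597 2 lay between the controls, and the mean change was 0.11 (means 7.69 ± 0.21 and 7.80 ± 0.16, SD, n = 2 each). This value turned to -0.01 without FRAX-597 1 and to -0.04 without DMSO 3. With all 4 DMSO arrays pooled, which mixes the scales, the IPA-3 change of PTGS2 also turned sign, to -0.45.

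**Figure D1:**
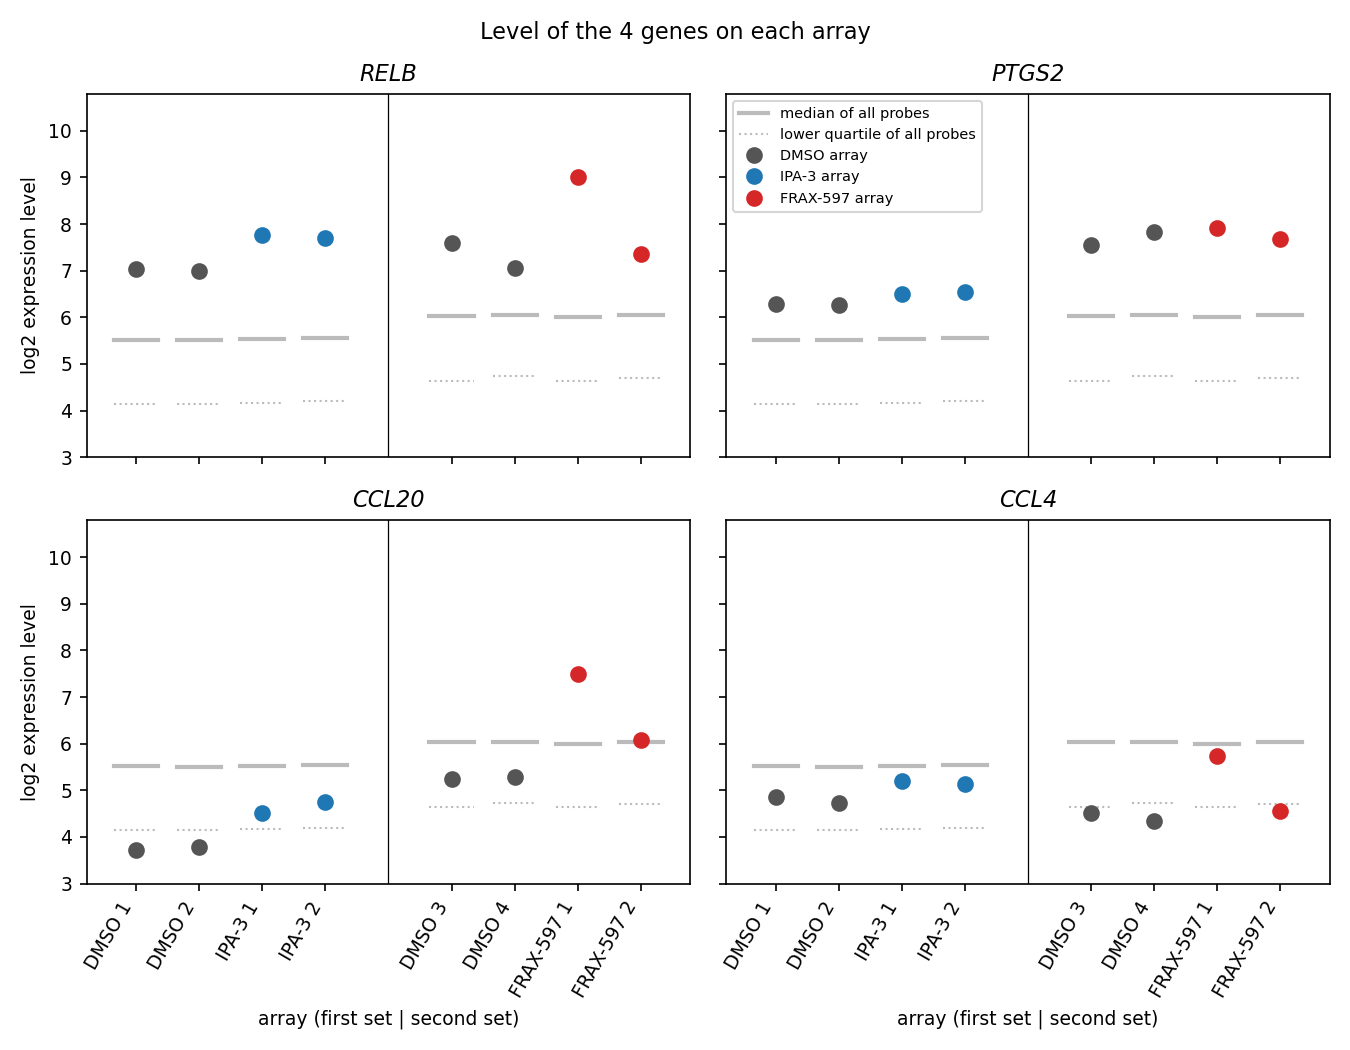
Log2 expression level (vertical axis) of RELB, PTGS2, CCL20 and CCL4 on each of the 8 arrays (horizontal axis), 1 point per array, with the median and lower quartile of all probes of that array as solid and dotted grey bars; the vertical line separates the array sets. RELB, CCL20 and CCL4 are highest in FRAX-597 1 (9.01, 7.49 and 5.73), and PTGS2 is about as high in DMSO 4 (7.84) as in FRAX-597 1 (7.91).

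With IPA-3 all 4 genes had groups that did not overlap, compound higher, against 19.3% of all genes with that property. With FRAX-597 this held for CCL20 and CCL4, against 13% of all genes. In limma, with 1 fit of 4 groups over all 8 arrays and a Benjamini-Hochberg adjusted p under 0.05, 0 of the 4 passed for IPA-3 (0.0336% of all genes passed), and 0 of the 4 had an unadjusted p under 0.05 (7.21% of all genes). For FRAX-597 it was again 0 of 4 (0.155% of all genes), and 1 of 4, CCL20, had an unadjusted p under 0.05 (7.66% of all genes). Because each gene has a single spread over both sets there, the unlike FRAX-597 arrays enter the error of the IPA-3 change too. The SE of the RELB change was 0.46 in it, but 0.09 from the first set alone and 0.58 from the second set alone. In the first set alone 2 of 4, RELB and CCL20, passed for IPA-3 (0.645% of all genes). There 4 of 4 had an unadjusted p under 0.05, as had 2244 of all 14884 genes. In the second set alone 0 of 4 passed for FRAX-597 (0% of all genes), with 1 of 4 at an unadjusted p under 0.05 (4.07%). The compounds were given at different doses and read against different controls. Side by side, the FRAX-597 change less the IPA-3 change was 0.13 (SE 0.65) for RELB, 0.65 (SE 0.54) for CCL20, 0.33 (SE 0.46) for CCL4 and -0.15 (SE 0.19) for PTGS2. In limma 0 of 4 of these differences passed (0.0134% of all genes), and 0 of 4 had an unadjusted p under 0.05 (6.11% of all genes).

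In the FRAX-597 set the arrays appear to come in pairs, DMSO 3 with FRAX-597 1 and DMSO 4 with FRAX-597 2, a pairing that no label states and that was read from these values. Across the 14884 genes, which are not independent replicates, the gap between DMSO 3 and DMSO 4 went with the gap between the FRAX-597 arrays at r = 0.65. In the pair of DMSO 3, CCL20 differed by 2.24 (4.73-fold), RELB by 1.42 (2.67-fold), CCL4 by 1.22 (2.32-fold) and PTGS2 by 0.37 (1.29-fold). In the pair of DMSO 4 the same differences were 0.81, 0.30, 0.22 and -0.15. All 4 were larger in the former pair, by 1.43 for CCL20, 1.11 for RELB, 0.999 for CCL4 and 0.52 for PTGS2, where the median over all genes was -0.03. CCL20 ranked 21st of all genes in the pair of DMSO 3 and 134th in that of DMSO 4. RELB went from rank 81 to rank 1328, CCL4 from 112 to 2247, and PTGS2 from 1226 to 11632. The position of CCL20 among the genes thus shifted least. With the pairs as a block, 0 of 4 passed for either compound (1.36% of all genes for FRAX-597, 0.484% for IPA-3). An unadjusted p under 0.05 was then met by 3 of 4 for FRAX-597 (14.8% of all genes) and by 2 of 4 for IPA-3 (14.1%).

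The control arrays of the pairs were less apart than the FRAX-597 arrays for 3 of these genes. DMSO 3 less DMSO 4 was 0.53 in RELB, 0.18 in CCL4, -0.03 in CCL20 and -0.29 in PTGS2. FRAX-597 1 exceeded FRAX-597 2 by 1.64 in RELB, 1.41 in CCL20, 1.17 in CCL4 and 0.22 in PTGS2. By size the RELB gap was the 105th among all genes, that of CCL20 the 177th and that of CCL4 the 280th. IPA-3 1 and IPA-3 2 differed in the same genes by 0.06, -0.24, 0.07 and -0.04 in the order RELB, CCL20, CCL4 and PTGS2.

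**Figure D2:**
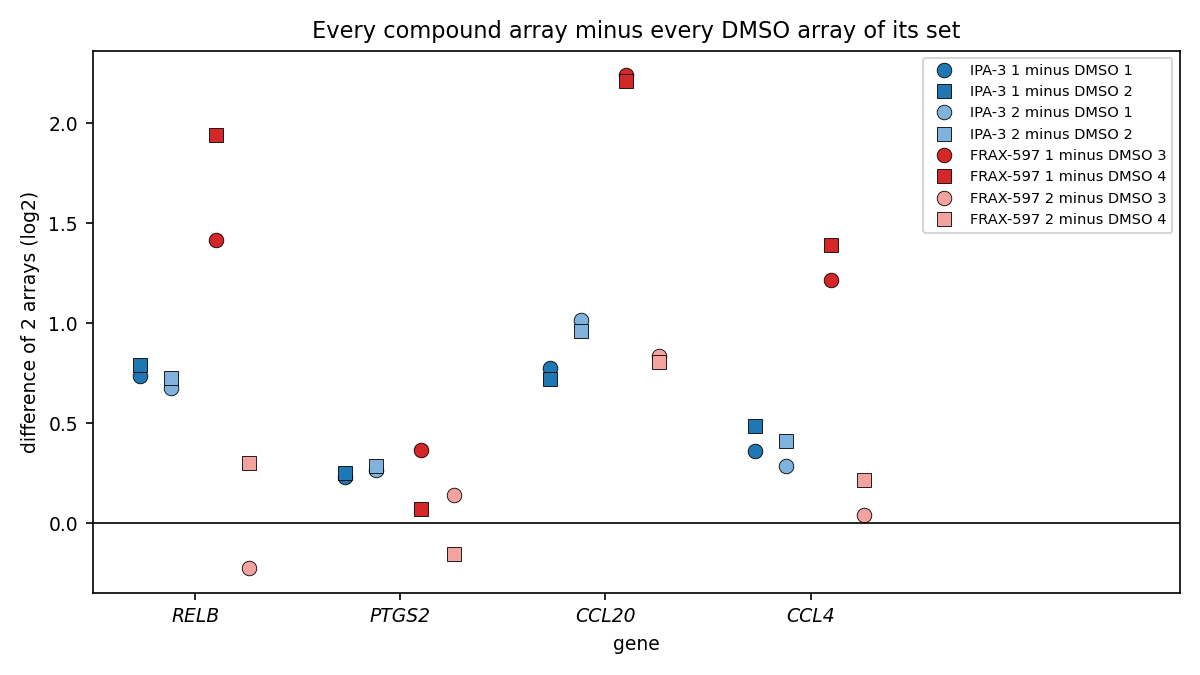
Difference in log2 level (vertical axis) between every compound array and every DMSO array of its set, for each gene (horizontal axis); colour gives the compound array and marker shape the DMSO array. The IPA-3 differences lie close together and above 0 for each gene, whereas those of FRAX-597 1 reach 2.24 in CCL20 and those of FRAX-597 2 straddle 0 in RELB and PTGS2.

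The solvent controls of the sets also differed in these genes. In limma 2 of 4, PTGS2 and CCL20, passed between them (59.9% of all genes). Over all genes DMSO 3 and 4 exceeded DMSO 1 and 2 by a median of 0.48, so the differences are given beyond it. PTGS2 lay 0.94 and CCL20 1.02 above that shift, at percentiles 97.6 and 98.2 of all genes, RELB 0.16 below it (-0.16) and CCL4 0.83 below it (-0.83). On each array's own scale, PTGS2 was at percentile 63.4 to 63.8 of all probes in DMSO 1 and 2 and at 75.8 to 79.4 in DMSO 3 and 4. CCL4 was at 35.3 to 37.4 and at 19.1 to 23.1. CCL20 in DMSO 3 and 4, at percentile 34.6 to 35.3, was about where it stood with IPA-3 in the first set, at 31.0 to 34.8. Differences of culture and of array processing between the sets cannot be told apart here.

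The other NF-kB subunits followed RELB in part. NFKB2, the precursor of the p52 partner of RELB, was at 6.99 and 6.81 in DMSO 1 and 2, 7.84 and 7.55 with IPA-3, 8.25 and 7.78 in DMSO 3 and 4, 10.41 in FRAX-597 1 and 7.97 in FRAX-597 2. NFKB1, which encodes p105 and p50, had an IPA-3 change of 0.71 (limma adjusted p = 0.861, and 0.0442 from the first set alone) and differed by 1.66 and -0.10 in the FRAX-597 pairs. RELA, the main activating subunit, differed by 0.09 with IPA-3 and by 0.08 and -0.10 in the pairs, and so hardly moved on any array. REL differed by 0.08 with IPA-3 and by 0.88 with FRAX-597 (SE 0.27; limma adjusted p = 0.443). In the 4 subunits other than RELB the median FRAX-597 change was 0.83, and without FRAX-597 1 (FRAX-597 2 against both controls) it was -0.04. Taken by pair, the median was 1.54 in that of DMSO 3 and 0.05 in that of DMSO 4.

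Of the inhibitors and feedback genes of NF-kB, 5 of 11 listed were measured, and the median change was 0.18 with IPA-3 and 0.48 with FRAX-597. The latter was -0.05 without FRAX-597 1 and 0.98 without FRAX-597 2. Within the pairs the median was 0.90 in that of DMSO 3 and -0.025 in that of DMSO 4. BCL3, a nuclear inhibitor homologue that binds p50 and p52 dimers, had differences of 1.48 and 1.23 in the pairs, with 8.14 and 7.84 in DMSO 3 and 4 and 9.62 and 9.07 with FRAX-597. Its change of 1.36 (SE 0.19) missed the threshold (limma adjusted p = 0.0671) and passed with the pairs as a block (limma adjusted p = 0.00236). The pairs were read from these values, so a pass with the block is no separate support, here or below. Among 11 kinases and adaptors that lead to NF-kB the median was 0.02 with IPA-3 and 0.03 with FRAX-597, with 7 and 6 above 0. Without FRAX-597 1 the latter count was 1 of 11 (median -0.08). It was 6 of 11 in the pair of DMSO 3 (median 0.08) and 3 of 11 in that of DMSO 4 (median -0.04). Over all genes the share above 0 was 44.4% with IPA-3, 45.2% with FRAX-597 and 47.7% without FRAX-597 1. By pair that share was 43.4% with DMSO 3 and 49.6% with DMSO 4. TRAF3, an adaptor that restrains the non-canonical branch, differed by 0.88 with IPA-3 (SE 0.39; limma adjusted p = 0.695, and 0.0339 from the first set alone). IRAK2, an interleukin-1 receptor kinase, read 9.81 in FRAX-597 1, 7.06 in FRAX-597 2, 6.90 in DMSO 3 and 6.59 in DMSO 4.

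Other NF-kB inducible genes numbered 23 in the list, of which 12 were measured. Of these 12, 10 were above 0 with IPA-3 (median 0.43) and 12 with FRAX-597 (median 0.64). Over all genes the shares were 44.4% and 45.2% and the medians -0.02 and -0.02. The list was chosen with earlier results in view, so its shares are a description only. Without FRAX-597 1, however, 4 of 12 were above 0, and the median of the 12 was -0.05. That setting reads FRAX-597 2 against both controls. Against DMSO 4 alone, its own pair, 8 of 12 were above 0 (median 0.12), and in the pair of DMSO 3 all 12 were (median 1.17). Over all genes the share was 47.7% without FRAX-597 1, 49.6% in the pair of DMSO 4 and 43.4% in that of DMSO 3. ICAM1, an adhesion molecule for leukocytes, was at 4.77 and 5.02 with DMSO and 6.38 and 6.26 with IPA-3 (limma adjusted p = 0.8315, and 0.0192 from the first set alone). In the second set ICAM1 was at 7.47 and 6.19 with DMSO, at 10.64 in FRAX-597 1 and at 6.60 in FRAX-597 2. CFLAR, a caspase-8 inhibitor, had an IPA-3 change of -0.16 and a FRAX-597 change of 1.08 (SE 0.20, limma adjusted p = 0.176). The latter passed with the pairs, read from these values, as a block (limma adjusted p = 0.0367).

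The other chemokine ligands were spread around 0. Of 20 measured, 10 were above 0 with IPA-3 and 12 with FRAX-597, with medians of 0.005 and 0.09. The FRAX-597 count was 7 of 20 without FRAX-597 1 (median -0.06) and 17 of 20 without FRAX-597 2 (median 0.16). Pair by pair it was 14 of 20 with DMSO 3 (median 0.16) and 11 of 20 with DMSO 4 (median 0.05). Over all genes the share above 0 was 47.7% without FRAX-597 1 and 44.0% without FRAX-597 2. By pair that share was 43.4% with DMSO 3 and 49.6% with DMSO 4. CXCL8, the neutrophil chemokine interleukin-8, had the largest IPA-3 change among them, from 6.00 and 6.33 to 8.29 and 8.35 (2.16, SE 1.35; limma adjusted p = 0.773, and 0.0124 from the first set alone). With FRAX-597 its pairs went opposite ways, by 3.40 and -1.31. CCL2 had the largest FRAX-597 change among the 20, 1.28 (SE 1.41; limma adjusted p = 0.945), and CXCL10 the lowest, -0.71. In the pairs CCL2 differed by 1.69 and 0.87, from unlike controls of 8.82 in DMSO 3 and 5.42 in DMSO 4. It passed with the block of pairs read from these values (limma adjusted p = 0.0344), which is no separate support. With IPA-3 CCL2 differed by 0.73. CCL3, a close relative of CCL4, differed by 0.29 with IPA-3 and by -0.11 with FRAX-597, and CCL3L1 by 0.30 and -0.11. In FRAX-597 1 less DMSO 3 these were -0.26 and 0.07, where CCL4 had 1.22. Of 9 other inflammatory cytokines, 7 were above 0 with IPA-3 (median 0.17) and 6 with FRAX-597 (median 0.59, and -0.03 without FRAX-597 1). In the pair of DMSO 3, 7 of 9 were above 0 (median 0.85), and in that of DMSO 4, 5 of 9 (median 0.02). TNF, an activator of NF-kB, was at 8.81 and 8.98 in DMSO 1 and 2 and at 9.95 and 9.58 with IPA-3. In the second set TNF lay further apart between the pairs than within them, at 9.77 and 9.82 in DMSO 3 and FRAX-597 1 and at 7.79 and 7.73 in DMSO 4 and FRAX-597 2.

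Genes around PTGS2 in the prostaglandin and leukotriene route went both ways. Of 14 measured, 5 were above 0 with IPA-3 (median -0.03) and 7 with FRAX-597 (median 0.00095). The FRAX-597 count was 10 without FRAX-597 1 (47.7% of all genes) and 4 without FRAX-597 2 (44.0% of all genes). PTGS1, the constitutive cyclooxygenase, differed by 0.18 with IPA-3 and 0.48 with FRAX-597. TBXAS1, thromboxane synthase, stood at 5.96 and 5.83 with DMSO and at 6.77 and 6.66 with IPA-3 (0.81, SE 0.22; limma adjusted p = 0.526). It passed, higher, in the first set alone (limma adjusted p = 0.0421) and with the block of pairs read from these values (limma adjusted p = 0.0247). LTA4H, which makes leukotriene B4, had a change of -0.47 with IPA-3 (SE 0.12; limma adjusted p = 0.524). The receptors listed for the products of these genes included CCR6, the CCL20 receptor, at 4.91 to 5.20 on all arrays and CCR1, at 7.68 to 9.87.

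In all, 102 genes of these lists other than RELB, PTGS2, CCL20 and CCL4 were measured. They include lists not described above, with 8 receptors upstream of NF-kB and 13 AP-1 factors and immediate early genes. With IPA-3, 4 of these 8 and 7 of these 13 were above 0 (44.4% of all genes). With FRAX-597 it was 6 of 8 and 9 of 13 (45.2% of all genes). For IPA-3, 0 passed in limma (0.0336% of all genes), with 5 higher and 7 lower at an unadjusted p under 0.05 (7.21% of all genes). For FRAX-597, 0 passed (0.155%), with 12 higher and 3 lower unadjusted (7.66%). With the pairs as a block 3 passed for IPA-3 (0.484% of all genes), with CD44 and TBXAS1 higher and EGR1 lower, and 11 for FRAX-597 (1.36%), 7 higher and 4 lower. Of these block passes, EGR1 for both compounds and EGR3, FOSL2 and LY96 for FRAX-597 belong to the lists not described above. From the first set alone 8 passed for IPA-3 (0.645% of all genes), 7 higher and 1 lower. From the second set alone 0 passed for FRAX-597 (0%), with 5 higher and 3 lower unadjusted (4.07%). The lists were chosen with earlier results in view, so these counts do not stand apart from how the lists were made.

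**Figure D3:**
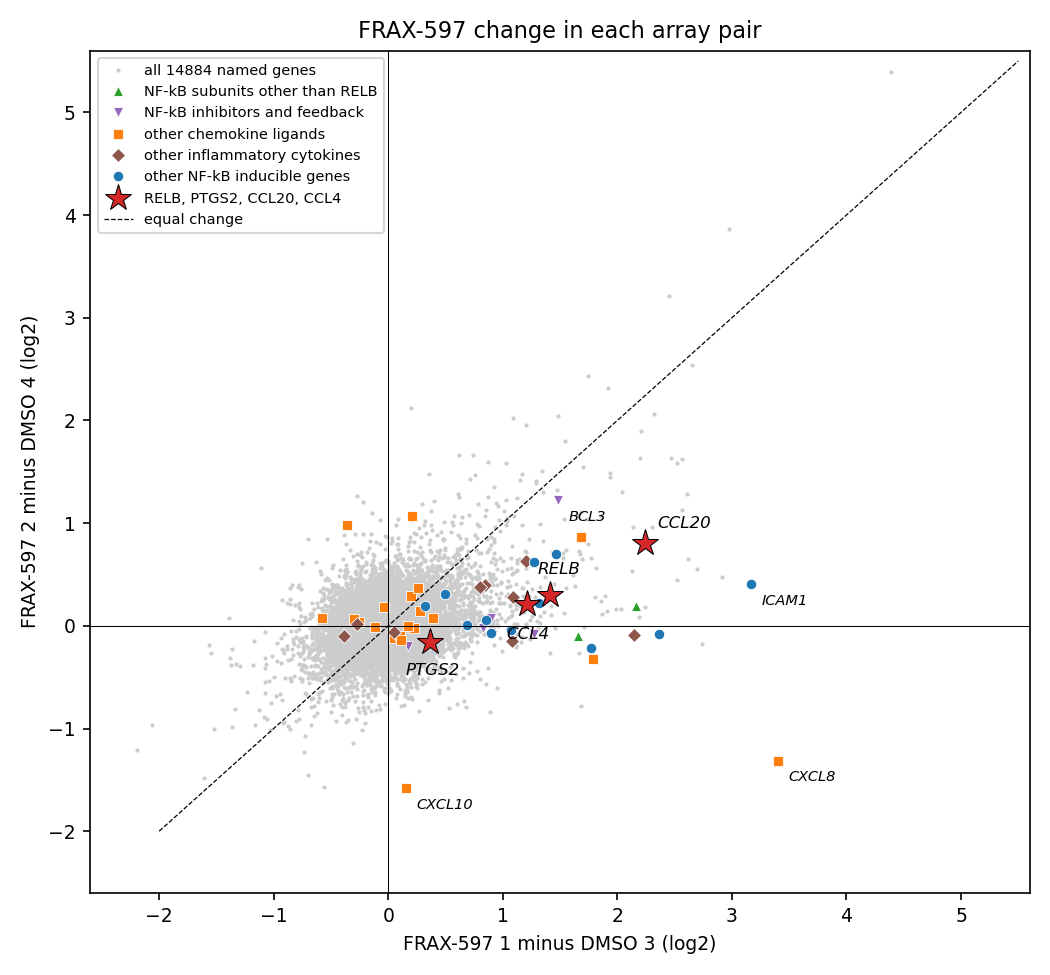
Difference FRAX-597 1 minus DMSO 3 (horizontal axis, log2) against FRAX-597 2 minus DMSO 4 (vertical axis, log2) for all 14884 named genes in grey and for genes of the NF-kB and inflammatory lists in colour, with the 4 genes as stars; the dashed line marks equal change. CCL20 (2.24 and 0.81), RELB and CCL4 lie to the right of the line, as do ICAM1 and CXCL8, and BCL3 (1.48 and 1.23) lies near it.

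To describe what these genes share over the arrays, each value was taken as the deviation from the mean of its set of 4 arrays. Over 8 arrays RELB and CCL4 went together at r = 0.98, CCL20 and CCL4 at 0.94 and RELB and CCL20 at 0.92. PTGS2 correlated less, at 0.61 with RELB, 0.63 with CCL4 and 0.71 with CCL20. These values have no p, and the arrays share sets and 1 array, FRAX-597 1, that is far from the rest. Among 957 genes whose deviations span at least 1, the most like the mean of the 4 were NFE2L2 (the antioxidant factor NRF2, r = 0.991), ZC3H12C (0.987), KYNU (kynureninase of tryptophan breakdown, 0.986), CCN2 (a secreted matricellular protein, 0.979) and CD83 (a surface protein of mature dendritic cells, 0.976). NFE2L2 was at 8.79 and 8.71 in DMSO 1 and 2, 9.20 and 9.34 with IPA-3, 8.96 and 8.76 in DMSO 3 and 4, 9.94 in FRAX-597 1 and 8.98 in FRAX-597 2. The most opposite were RGS19 (-0.973), NTSR1 (the neurotensin receptor, -0.969) and CYTH4 (-0.960). RGS19, which curbs G protein signals, was at 9.79 and 9.99 in DMSO 3 and 4, 8.71 in FRAX-597 1 and 9.44 in FRAX-597 2.

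Gene by gene, the nearest genes were different ones, although each of them was at its highest within the second set in FRAX-597 1. For RELB they were LINC00622 (r = 0.994), ICAM1 (0.993) and DIXDC1 (0.992), and for CCL4 ZC3H12C (0.994), NFKB2 (0.992) and KYNU (0.991). CCL20 was nearest to ASNS, the asparagine synthetase gene (0.970), with MICOS10P1 (0.969) and MSANTD3-TMEFF1 (0.967) close behind. ASNS stood at 7.40 and 7.40 with DMSO, 8.23 and 8.21 with IPA-3, 8.11 and 7.66 in DMSO 3 and 4 and 9.65 and 8.71 with FRAX-597. PTGS2 was nearest to TNIP3 (0.922), an inhibitor of NF-kB signalling, then GSAP (0.861) and HIVEP2 (0.855). The deviations of PTGS2 itself ran only from -0.20 to 0.17, so genes with as small a span were not among the 957 compared. HIVEP2, a zinc finger factor that binds kB elements, had the largest IPA-3 change of all genes, 2.28, against 0.26 for PTGS2.

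**Figure D4:**
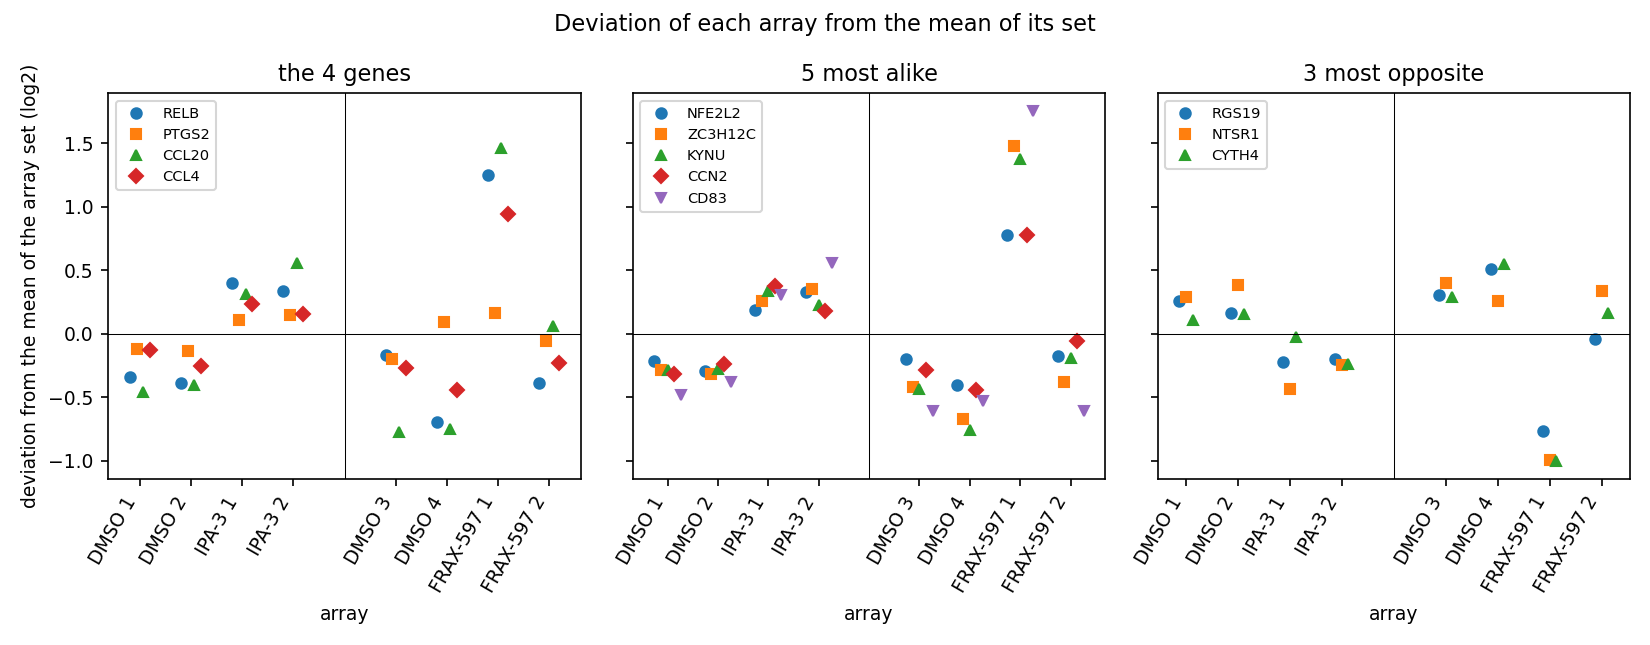
Deviation of each array from the mean of its set of 4 arrays (vertical axis, log2) by array (horizontal axis), 1 point per gene and array, for the 4 genes, for the 5 genes with the highest correlation to their mean over 8 arrays and for the 3 with the lowest. FRAX-597 1 is the highest array of its set for all 4 genes and for the 5 most alike, while PTGS2 spans the least of the 4.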

How the data were processed

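Total RNA of 8 THP-1 samples was hybridised to Affymetrix whole-transcript arrays, 1 array a sample. The authors deposited log2 expression values for 53617 probes. Affymetrix Expression Console and the Transcriptome Analysis Console were used, per the submitters' processing notes. The normalization, background correction, genome build and which arrays were normalized together are not given in the sources used here. Arrays have no read depth, so their number limits the precision. The platform annotation named 1 gene for 16098 probes, several for 0 and none for 37519. The probe with the highest mean stood for each of 14884 genes (779 had several). Changes were fitted with limma 3.58.1 in R 4.3.3 (lmFit, eBayes) in 1 model of 4 groups over 8 arrays, DMSO 1 and 2 apart from DMSO 3 and 4, with Benjamini-Hochberg adjustment over all genes. The fit was also run on simulated data with independent errors. These lack the paired gaps and the far FRAX-597 array of the real second set. The alternatives were pooled DMSO arrays, the array pairs as a block, each set alone, quantile normalization, median centring, a filter on low genes, all probes as features, the mean of a gene's probes and leaving out each array. Named genes were every probe of the 4 genes, the up to 4 largest changes per list and compound, genes called, and those most alike; some are left out of the text. The 4 genes, the lists and the array sets and pairs were chosen with earlier results of these data known.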

Additional observations from a re-analysis of the deposited data

Results flagged for a closer look

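Among the 4 DMSO arrays, which span both array sets, the RELB level of DMSO 3 (7.59) stood apart from the other 3 (6.98 to 7.07). Its gap to the nearest array made up 0.867 of the whole range. Because the sets differ in scale, the usual chance level of such a gap does not apply to these 4 arrays. Relative to each array's median over all probes, RELB stood at 1.52, 1.47 and 1.57 in DMSO 1, DMSO 2 and DMSO 3 and at 1.02 in DMSO 4. On that scale DMSO 3 lay with DMSO 1 and 2, and DMSO 4 was the array apart.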

How the results depend on the processing

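For IPA-3, 5 genes were called over all genes. The count was 0 with pooled DMSO arrays (843 at an unadjusted p under 0.05 in limma) and 0 with every probe as a feature (3416), 2 with quantile normalization, 2 among genes above the median of all probes, 72 with the replicate block of the array pairs, 96 from the first set alone, and 0 to 24 when 1 array was left out. Leaving out any array of the first set gave 0 (491 to 1146 unadjusted), leaving out DMSO 3 or DMSO 4 gave 2, and leaving out either FRAX-597 array gave 24. For FRAX-597 the count of 23 became 5 with pooled DMSO arrays, 202 with the replicate block, 0 from the second set alone (606 at an unadjusted p under 0.05), 6 with every probe as a feature, and 2 to 227 when 1 array was left out. It was 227 without FRAX-597 2 and 20 without FRAX-597 1, 5 and 7 without DMSO 3 and DMSO 4, and 2 without any 1 array of the first set. The gain with the block is no separate support, since the pairs were read from these values.

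With pooled DMSO arrays the IPA-3 changes became 0.57 for RELB, -0.45 for PTGS2, 0.12 for CCL20 and 0.56 for CCL4, and the FRAX-597 changes 0.82 for PTGS2 and 2.28 for CCL20. Median centring gave 0.23 for the IPA-3 change of PTGS2. The block left the changes as they were. Leaving out 1 array gave IPA-3 changes of 0.70 to 0.76 for RELB, 0.24 to 0.28 for PTGS2, 0.75 to 0.99 for CCL20 and 0.32 to 0.45 for CCL4. The FRAX-597 changes then ran from 0.04 to 1.68, -0.04 to 0.25, 0.82 to 2.23 and 0.13 to 1.30. Levels under the lower quartile of all probes limit CCL20 in the first set and CCL4 in the second.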

Other observations

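Genes that act beside these inflammatory genes differed in how evenly the FRAX-597 arrays carried the change. PTGER4, a receptor for the prostaglandin E2 that PTGS2 activity feeds, stood at 9.98 and 9.80 in DMSO 3 and 4 and at 9.28 and 8.35 with FRAX-597 (-1.08, SE 0.26; limma adjusted p = 0.297). It passed, lower, with the pairs as a block (limma adjusted p = 0.0309). The pairs were read from these values, so a pass with the block is no separate support for PTGER4 or FOSL2. The PTGER4 difference was larger in the pair of DMSO 4 (-1.45) than in that of DMSO 3 (-0.70), opposite to the order in CCL20. FOSL2, an AP-1 factor, had nearly equal differences of 1.09 and 1.07 in the pairs, from 8.70 and 8.52 to 9.79 and 9.59. Its change of 1.08 (SE 0.15) had a limma adjusted p of 0.0573, and 0.009 with the block. With IPA-3 FOSL2 went from 7.47 and 7.71 to 7.30 and 7.09.

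EGR1, an immediate early factor downstream of ERK, was lower with both compounds. It stood at 9.33 and 9.32 with DMSO and at 8.41 and 8.33 with IPA-3, and at 9.58 and 9.66 with DMSO and 8.68 and 9.15 with FRAX-597. The changes of -0.96 and -0.70 did not pass in the fit over all arrays (limma adjusted p = 0.256 and 0.241). They passed with the block (limma adjusted p = 0.0227 and 0.0367), which is no separate support either. The IPA-3 change of EGR1 also passed, lower, from the first set alone (limma adjusted p = 0.0233).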
